A study of Mus musculus with 3 samples.

Results

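Kit and 7 cytokine receptor chains (Il3ra, Csf2rb, Csf2rb2, Csf2ra, Il1rl1, Il4ra and Il9r) were read in cultured mouse mast cells by 14 array probes. The genes were chosen by name, and every non-control spot that carries one of these 8 gene names in the scanner files was kept. They make up 8 of 31131 genes and 14 of 39429 probes of the array design. The cells were bone-marrow-derived mast cells (BMMCs) of male C57BL/6 mice that lack Pafah2, a phospholipase that frees oxidised fatty acids from membrane lipids. The sample labels give the age of the mice as 12 weeks and the protocol gives 8 to 12 weeks. Cells of all 3 groups carried this deficiency, so no group had normal Pafah2. The culture medium and its growth factors are not stated in the sources used here. The vehicle group received DMSO. The epoxide group received 300 nM of the omega-3 epoxides 17,18-EpETE and 19,20-EpDPE mixed 2 to 3, and the last group received 0.5 µM GW9662, which blocks the nuclear receptor PPAR gamma. Treatment lasted 12 h. Each group was 1 array, and whether cells of several animals were pooled is not stated in the sources used here.

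Because there was 1 array per group, no spread between cultures could be measured and no test was run. The only error given is technical: the SD of log2 signal between copies of the same probe on 1 array had a median of 0.0602 on the vehicle array, 0.0558 on the epoxide-labelled array and 0.0553 on the GW9662-labelled array, over 219 probes with at least 5 copies. This gives a technical SD of 0.0821 for a log2 ratio of epoxides over vehicle, 0.0818 for GW9662 over vehicle and 0.0786 for epoxides over GW9662. It covers spot error and leaves out culture, labelling and hybridisation. Which treatment each of the 2 treated arrays had cannot be settled from the deposit: the authors' value table assigns to epoxides the signals that the scanner files assign to GW9662, and the reverse. Arrays are named here after the sample whose scanner file they are, and the treatments trade places if the value table is right. In the rows after row 180 and up to row 400 of the 532 array rows, called the central band here, copies of a probe often disagree. There, 7.69% of 5004 copy readings lay at least 2-fold from the median of their probe, against 0.589% of 6966 in the other rows. Of the 14 receptor probes, 8 lie in this band, the single Kit probe among them.

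Mast cells depend on stem cell factor, the ligand of the receptor tyrosine kinase Kit, for survival and growth, and cultures from bone marrow are usually driven by interleukin 3 (IL-3). IL-3, GM-CSF and IL-5 each use a private alpha chain and share a signalling beta chain that activates JAK2 and STAT5. Mice carry a second, closely related beta chain gene, Csf2rb2, that serves IL-3 alone. The IL-33 receptor chain ST2, encoded by Il1rl1, works through MyD88 and IRAK kinases and exists as a membrane receptor and as a soluble decoy. The IL-4 receptor alpha chain signals through STAT6, and the IL-9 receptor pairs with the common gamma chain Il2rg.

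Several results below turn on what the probes can tell apart, so parts of them are shown, copied from the scanner files in the orientation given there. The brighter probes of the paralogs Csf2rb and Csf2rb2 share a homologous stretch of 30 bases with 27 identical, and capitals mark the bases that differ.
Csf2rb, bases 30 to 59 of the probe: ggcagatcaaAtgtCccttggtctCtgttc
Csf2rb2, bases 12 to 41 of the probe: ggcagatcaaGtgtTccttggtctAtgttc
The differences are A11G, C15T and C25A, counted from the first base shown, with the Csf2rb base first. The longest run without a difference in these 60-base probes is 10 bases, and the other pairs of Csf2rb and Csf2rb2 probes share at most 6. No receptor probe shares a run of 16 bases or more with a probe of another receptor.

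Il1rl1 has probes for 2 transcripts, and the last 30 bases of each show that they are separate sequences. Variant 1 codes for the membrane receptor and variant 2 for the soluble form.
Il1rl1 variant 1, brighter probe: tgtgtttgaagagttctagcttattaaaaa
Il1rl1 variant 1, dimmer probe: tgttttcagttctaaatgccttttatatat
Il1rl1 variant 2: tgagtgtactttagttcacgtttgtattag
Kit, which rests on 1 probe, ends in the following bases.
Kit: aattttgtcttggatattcttgaaagttta
Positions are those of the files (build mm9). Which exon or untranslated region a probe lies in was not annotated here, as no annotation of that build was used. In 4 of the 14 probes, those of Il3ra and Csf2ra, the brighter variant 1 probe of Il1rl1 and its variant 2 probe, all 3 forward reading frames hold a stop codon, so none of these 4 can lie wholly within coding sequence read in the orientation listed. The same is true of 20.4% of all 39429 probes.

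Levels are log2 processed signal minus the log2 of the 75th percentile of the array, so a level of 0 is the signal at that percentile. They are compared for 1 probe across arrays. Between probes, signal serves only to name the brighter or dimmer probe, to group probes of like signal and to sum marker levels. Ratios are differences of these levels. A gene was called when it differed at least 2-fold, which is a log2 ratio of 1, and was measured when its probe of highest mean level was well above background on both arrays.

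**Figure D1:**
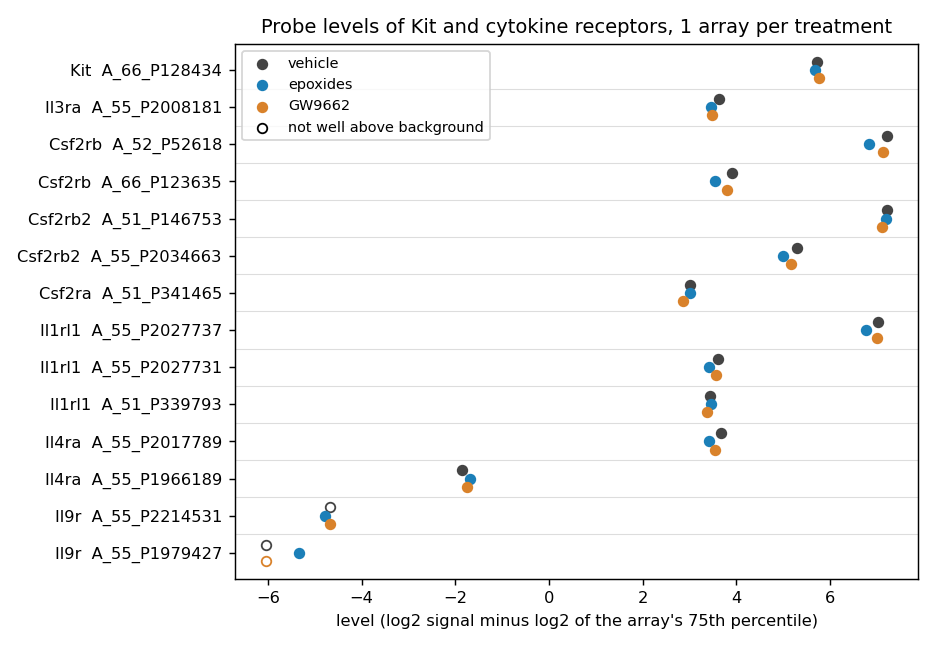
Levels of the 14 receptor probes (log2 signal minus log2 of the 75th percentile) on the 3 arrays, 1 point per probe and array, with open points where a probe was not well above background. All probes but those of Il9r were above background on all 3 arrays, and the widest gap between arrays is that of the dimmer Il9r probe, at -6.05, -5.34 and -6.04.

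No receptor gene was called in any comparison. For epoxides over vehicle this was 0 of 7 measured genes, where 2.29% of all 15818 measured genes were called. For GW9662 over vehicle it was 0 of 7, where 0.823% of 15794 were called. For epoxides over GW9662 it was 0 of 8, where 1.17% of 16048 were called. With shares this small over all genes, a count of 0 among 7 or 8 says nothing particular about the receptors. At 1.5-fold the count of receptor genes was also 0 in each comparison, where 10.2%, 1.84% and 5.75% of all measured genes were called in the same order.

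Kit, the stem cell factor receptor, had 1 probe (chr5:76052394-76052453, plus strand, array row 277), which was bright on every array. Its level was 5.73 with vehicle, 5.68 on the epoxide-labelled array and 5.75 on the GW9662-labelled array. The 3 values lie within 0.076 of each other, less than the technical SD of a ratio. The log2 ratio was -0.047 for epoxides over vehicle and 0.029 for GW9662 over vehicle. The first became positive under quantile normalization (0.19), under cyclic loess (0.11), after removal of the GC and signal trend across probes (0.056) and in the value table (0.029), so no direction can be given for Kit on the epoxide-labelled array. Probes of signal like that of Kit, meaning the brightest of 10 equal groups of measured probes, had a median of -0.19 there, with quartiles of -0.30 and -0.064.

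Il3ra, the alpha chain that binds IL-3, had 1 probe (chr14:15187898-15187957, plus strand, array row 469). It read 3.64 with vehicle, 3.45 on the epoxide-labelled array and 3.49 on the GW9662-labelled array, so both treated arrays were lower. The ratios were -0.19 and -0.15, which are 2.31 and 1.87 technical SDs. For epoxides over vehicle, 52.9% of all measured probes lay beyond 2 technical SDs. The probe has the highest GC content of the 14, at 60%. After removal of the GC and signal trend, the ratio for epoxides over vehicle was 0.21, the opposite sign, and that for GW9662 over vehicle was -0.032.

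Csf2rb, the beta chain shared by IL-3, GM-CSF and IL-5, was the receptor gene farthest from vehicle. Its brighter probe (chr15:78181168-78181227, plus strand, array row 63) read 7.22 with vehicle, 6.82 on the epoxide-labelled array and 7.13 on the GW9662-labelled array. Its dimmer probe (chr15:78179504-78179563, plus strand, array row 282) read 3.90, 3.55 and 3.80 in the same order. Both probes were lowest on the epoxide-labelled array. Their ratios for epoxides over vehicle were -0.40 and -0.36, which are 4.85 and 4.35 technical SDs. Among all measured probes 52.9% lay beyond 2 technical SDs in this comparison. Both Csf2rb ratios lay below the first quartile of probes of like signal (-0.30 and -0.17). So did the Il3ra probe, the dimmer variant 1 probe of Il1rl1 and the bright Il4ra probe, at -0.19, -0.20 and -0.26 against a first quartile of -0.17. In fold terms the brighter probe was 1.32-fold lower. For GW9662 over vehicle both gave smaller ratios, at -0.095 and -0.0997. The size on the epoxide-labelled array rests on the scaling: the brighter probe had -0.18 under cyclic loess, -0.084 under quantile normalization and -0.013 once the GC and signal trend was removed. The dimmer probe had -0.27, -0.30 and -0.042 under the same settings.

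Csf2rb2, the beta chain used by IL-3 only, did not give 1 answer. The brighter probe (chr15:78113126-78113185, minus strand, array row 387) read 7.21 with vehicle, 7.19 on the epoxide-labelled array and 7.11 on the GW9662-labelled array. The dimmer probe (chr15:78114097-78114156, minus strand, array row 167) read 5.29, 5.0003 and 5.16. For epoxides over vehicle their ratios were -0.020 and -0.29, a gap of 0.27, while for GW9662 over vehicle they were -0.11 and -0.12. The brighter probe reached 0.27 under quantile normalization and 0.38 once the GC and signal trend was removed, against -0.12 and -0.096 for the dimmer probe, so the sign for this gene on the epoxide-labelled array depends on the probe and the scaling.

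The brighter probes of Csf2rb and Csf2rb2 have the same GC content (45%) and both fall in the brightest of the 10 signal groups. For epoxides over vehicle their ratios differed by -0.38 (Csf2rb minus Csf2rb2), which is 3.25 times the technical SD of such a difference (0.116). Under the 6 alternatives that keep the sample labels of the scanner files and retain both probes, it ran from -0.39 to -0.35. These settings shift probes of the same GC content and like signal nearly alike, so this narrow range is no check on the difference. For GW9662 over vehicle the difference was 0.014. The dimmer probes of the same 2 genes differed by -0.072 for epoxides over vehicle, within the technical SD. The gap between the paralogs is therefore seen with 1 pair of probes of 2. In that pair the Csf2rb2 spot lies in the central band and the Csf2rb spot does not; whether the location plays a part was not tested.

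Csf2ra, the alpha chain for GM-CSF, had 1 probe (chr19:61300336-61300395, minus strand, array row 387). It read 3.01 with vehicle, 3.02 on the epoxide-labelled array and 2.85 on the GW9662-labelled array, the last being the low one. The ratios were 0.0045 and -0.16, and the second, 2.00 technical SDs, was the only one of 12 receptor probe ratios beyond 2 technical SDs for GW9662 over vehicle. Among all measured probes 21.7% lay that far out in this comparison. Once the GC and signal trend was removed, the ratio for GW9662 over vehicle was -0.19.

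Il1rl1, the ST2 chain that binds IL-33, had 3 probes on chromosome 1. The brighter variant 1 probe (chr1:40522187-40522246, plus strand, array row 164) read 7.03 with vehicle, 6.77 on the epoxide-labelled array and 6.997 on the GW9662-labelled array. The dimmer variant 1 probe (chr1:40520014-40520073, plus strand, array row 65) read 3.62, 3.41 and 3.56. The variant 2 probe (chr1:40504769-40504828, plus strand, array row 318), which reports the soluble form, read 3.44, 3.46 and 3.38. On the epoxide-labelled array both variant 1 probes were low, with ratios of -0.25 and -0.20, and the variant 2 probe was not, with 0.020. On the GW9662-labelled array the 3 ratios were -0.028, -0.061 and -0.060 in that order, all within 1 technical SD.

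All 3 Il1rl1 probes have a GC content of 35.0%. The dimmer variant 1 probe and the variant 2 probe are also in the same signal group, and their ratios for epoxides over vehicle differed by -0.22, which is 1.93 times the technical SD of a difference. This difference ran from -0.22 to -0.216 under the same 6 alternatives. These shift 2 probes of the same GC content and like signal nearly alike, so the narrow range is no check on the difference. For the brighter variant 1 probe the difference from variant 2 was -0.27, and -0.039 once the GC and signal trend was removed. Under quantile normalization the brighter variant 1 probe itself had 0.039. The variant 2 spot lies in the central band and both variant 1 spots lie outside; the part of location was not tested.

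Il4ra, the IL-4 receptor alpha chain, had a bright and a dim probe. The bright one (chr7:132722922-132722981, plus strand, array row 206) read 3.68 with vehicle, 3.42 on the epoxide-labelled array and 3.55 on the GW9662-labelled array. The dim one (chr7:132712550-132712609, plus strand, array row 256) read -1.85, -1.68 and -1.75, so it was lowest with vehicle where the bright one was highest. Ratios for epoxides over vehicle were -0.26 and 0.17, and for GW9662 over vehicle -0.13 and 0.10. The bright probe stayed negative for epoxides over vehicle with every scaling and background setting tried (from -0.28 to -0.13, the value table included), while its mean with the dim probe was -0.045. The dim probe shares a run of 16 bases with a probe of Hpca and with a probe of Synj2.

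Il9r, the IL-9 receptor, was at the edge of detection. One probe (chr11:32090499-32090558, minus strand, array row 419) read -4.67 with vehicle, -4.78 on the epoxide-labelled array and -4.67 on the GW9662-labelled array, and was not well above background with vehicle. The other (chr11:32089002-32089061, minus strand, array row 195) read -6.05, -5.34 and -6.04 and was above background on the epoxide-labelled array alone. The lowest level called well above background was -4.84 on the vehicle array and -5.03 on the GW9662-labelled array. The level of -5.34 lies under both, so no fold is given.

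**Figure D2:**
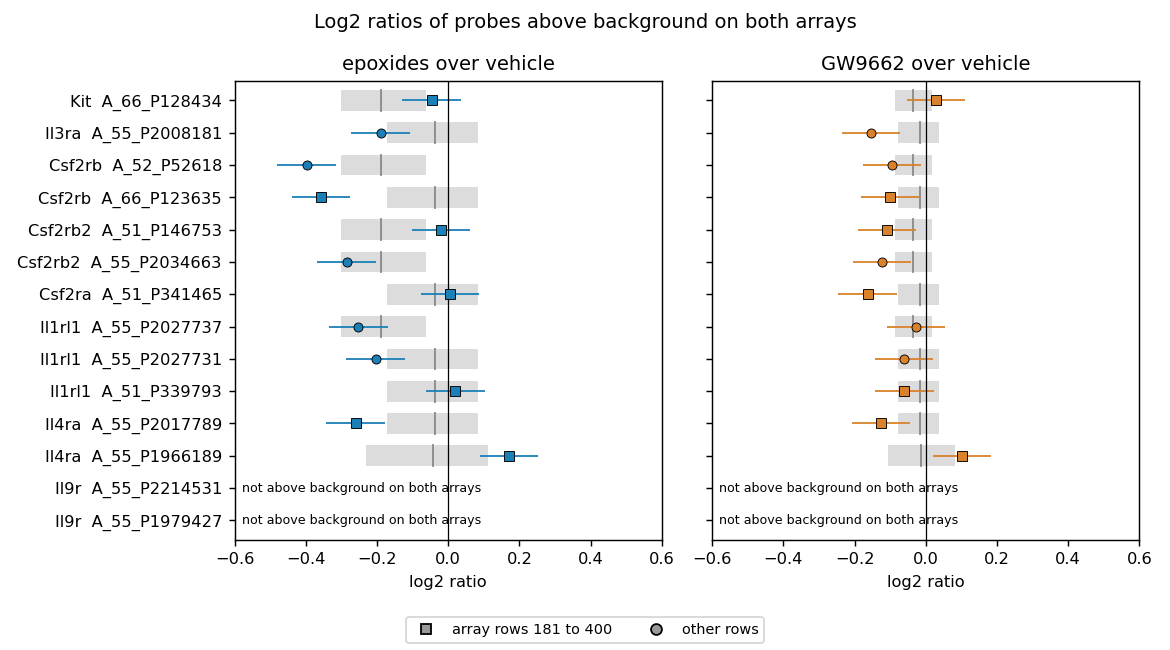
Log2 ratios of the 14 receptor probes for epoxides over vehicle (left) and GW9662 over vehicle (right). Bars are 1 technical SD (0.0821 and 0.0818), grey boxes with a line are the quartiles and median of all measured probes of like signal, squares are spots in the central band and circles are the other spots. Both Csf2rb probes lie below the grey boxes on the left, where points run from -0.40 to 0.17, and on the right points run from -0.16 to 0.10.

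Over the 12 receptor probes measured in both comparisons with vehicle, ratios for epoxides over vehicle ran from -0.40 to 0.17 with a median of -0.197, and 9 were negative. Those for GW9662 over vehicle ran from -0.16 to 0.10 with a median of -0.097, and 10 were negative. Among all measured probes the medians were -0.073 and -0.020. The comparisons share the vehicle array, so they are not independent readings. Read 1 probe per gene, the 7 measured receptor genes had medians of -0.19 and -0.11, against -0.073 and -0.022 for all genes, and 6 of 7 were negative in each, against 61.1% and 57.8% of all measured genes. Of the 12 receptor probes, 5 are among the brightest of the 10 signal groups, whose own median for epoxides over vehicle was -0.19. The dim Il4ra probe is in a group with a median of -0.042. All the others are in the next brightest group, with a median of -0.037.

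The receptor probes differed by place on the array. For epoxides over vehicle the 5 probes outside the central band had ratios from -0.40 to -0.19 and a median of -0.25, and the 7 inside had ratios from -0.36 to 0.17 and a median of -0.020. Among all measured probes the medians were -0.062 outside and -0.090 inside, the opposite order. For GW9662 over vehicle the receptor medians were -0.095 outside and -0.0997 inside. Kit, Csf2ra and Il4ra have no probe outside the band, and the 5 probes outside come from 4 genes. The sets also differ in signal: most probes outside are in the brightest signal group, and most inside are not. The parts of location and signal were not tested.

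**Figure D3:**
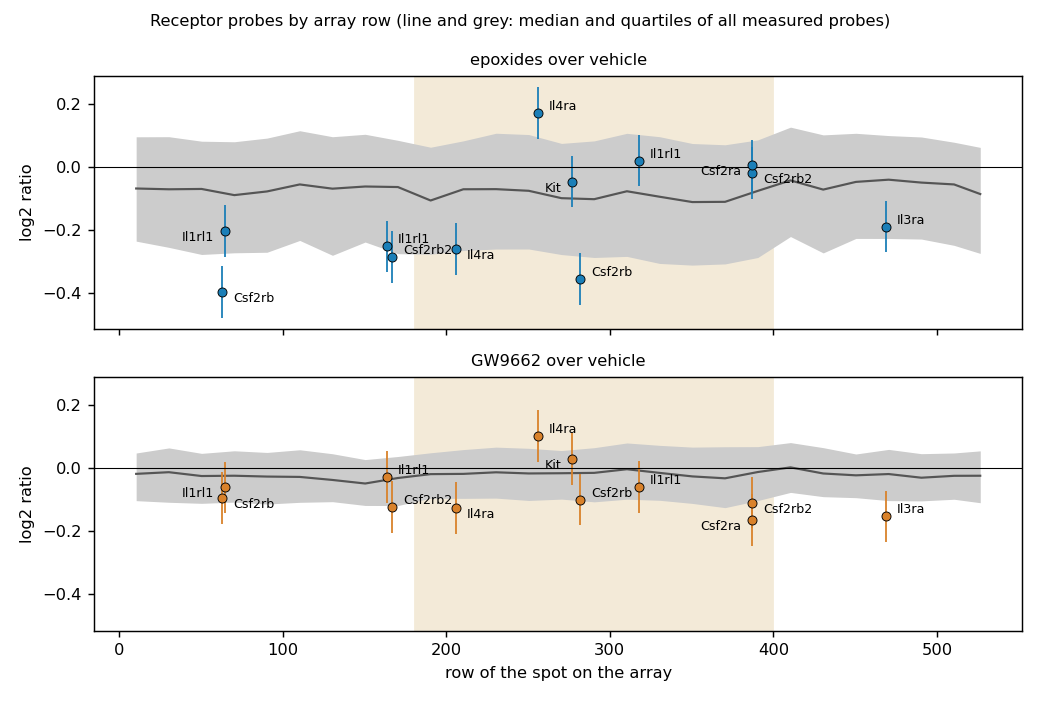
Log2 ratios of the 12 measured receptor probes against the row of their spot on the array, for epoxides over vehicle (top) and GW9662 over vehicle (bottom). Bars are 1 technical SD, the line and grey area are the median and quartiles of all measured single-copy probes in bands of 20 rows, and the shading marks the central band. In the top panel all 5 points outside the shaded rows lie below 0.

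Set directly against each other, the treated arrays gave ratios for epoxides over GW9662 of -0.30 for Csf2rb, -0.22 for Il1rl1, -0.13 for Il4ra, -0.10 for Il9r, -0.076 for Kit, -0.037 for Il3ra, 0.089 for Csf2rb2 and 0.17 for Csf2ra. Their median was -0.090, against -0.056 for all measured genes. This comparison reuses the 2 treated arrays. Its signs turn if the authors' value table is right about the labels.

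**Figure D4:**
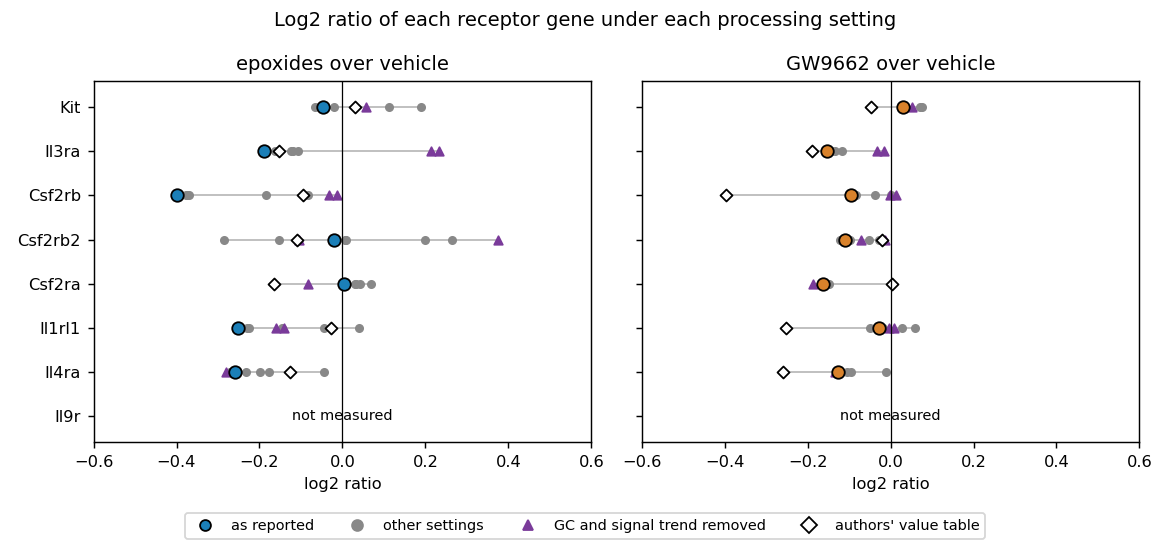
Log2 ratio of each receptor gene, read by its brightest probe left in the setting (or the mean of its probes in 1 setting), under each processing setting, for epoxides over vehicle (left) and GW9662 over vehicle (right). Large points are the values as reported, triangles the settings with the GC and signal trend removed, diamonds the authors' value table and small points the other settings. On the left only Csf2rb and Il4ra keep 1 sign under every setting shown, and the Csf2rb2 values run from -0.29, which is its dimmer probe without the central band, to 0.38 for its brighter probe.

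Csf2rb had the largest ratio against vehicle of the receptors, so the genes most like it were sought among 7848 measured genes at or above the median vehicle level, by Euclidean distance over its ratios on the 2 treated arrays. The nearest with a gene symbol were Asb6, at -0.40 and -0.088, and Nme6, at -0.39 and -0.0996. The other 3 of the nearest 5 are transcripts without a symbol. As many as 631 genes, 8.04% of those searched, lay within a distance of 0.1, so the pattern of Csf2rb is a common one on these 3 arrays.

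Ligands and partner chains of the receptors were read from lists chosen with earlier results of these data known. Of 8 ligands, Il4 and Il13 were measured against vehicle, and neither was called. Il4 read 2.52 with vehicle, 2.51 on the epoxide-labelled array and 2.39 on the GW9662-labelled array. Il13 read -1.43, -1.55 and -1.70, lowest on the GW9662-labelled array with a ratio of -0.26. Csf2, Il5, Il33 and Il9 were not well above background on any array, and Il3 was above it on the epoxide-labelled array alone. Of 5 partner chains, 3 were measured and none was called: Il2rg, the common gamma chain, had ratios of -0.29 and -0.095, Il1rap, the accessory chain of the IL-33 receptor, had 0.26 and 0.13, and Il5ra, the IL-5 receptor alpha chain, had 0.14 and -0.025. Il13ra1 was above background on the epoxide-labelled array alone and Il13ra2 on no array.

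Signalling genes behind the receptors also held no call against vehicle. Of 15 genes close to Kit, all measured, 7 were negative for epoxides over vehicle (median 0.014) and 9 for GW9662 over vehicle (median -0.017). The Src-family kinase Lyn had 0.30 and 0.027, the adaptor Sh2b3, which restrains cytokine receptor signalling, had 0.27 and -0.017, and the ubiquitin ligase Cbl had 0.21 and 0.15. Of 9 JAK and STAT genes 8 were measured, with medians of -0.044 and -0.024. Among them Stat3 had -0.34 and -0.068, Jak3, the kinase bound to the common gamma chain, had -0.27 and -0.15, and Stat5b had 0.22 and -0.00057.

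Genes that STAT factors induce or that curb cytokine signalling had medians of -0.21 and -0.15 over 7 genes, 6 of them negative in each comparison and none called. Osm, a cytokine gene induced by STAT5, had -0.36 and -0.49. Socs3, a feedback inhibitor, had -0.21 and -0.42, and the kinase gene Pim1 had -0.26 and -0.16. Of 8 genes that signal from the IL-33 receptor, all measured, none was called and the medians were -0.078 and -0.0073. Irak4 had -0.49 and -0.34, Traf6 had -0.47 and -0.17, and Sigirr, an inhibitory member of the receptor family, had -0.37 and -0.086. Irak4 and Traf6 each have another probe above background on at least 1 array, which is not given here. The spots of Socs3, Pim1 and Irak4 lie in the central band.

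Of 20 other haematopoietic cytokine receptors 15 were measured against vehicle, with no call and medians of -0.105 and -0.037. Csf3r, the G-CSF receptor, read 5.60 with vehicle, 5.10 on the epoxide-labelled array and 5.42 on the GW9662-labelled array, with ratios of -0.50 and -0.18. Ifngr2, a chain of the interferon gamma receptor, had -0.58 and 0.088, and Il2ra, the IL-2 receptor alpha chain, had -0.19 and -0.37. The 1 Ifngr2 probe lies in the central band and was dim, at -4.39 with vehicle, -4.96 on the epoxide-labelled array and -4.30 on the GW9662-labelled array. The lowest level called well above background with vehicle was -4.84. Il2rb, Il6ra, Il6st and Il1r1 were not well above background on any array.

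**Figure D5:**
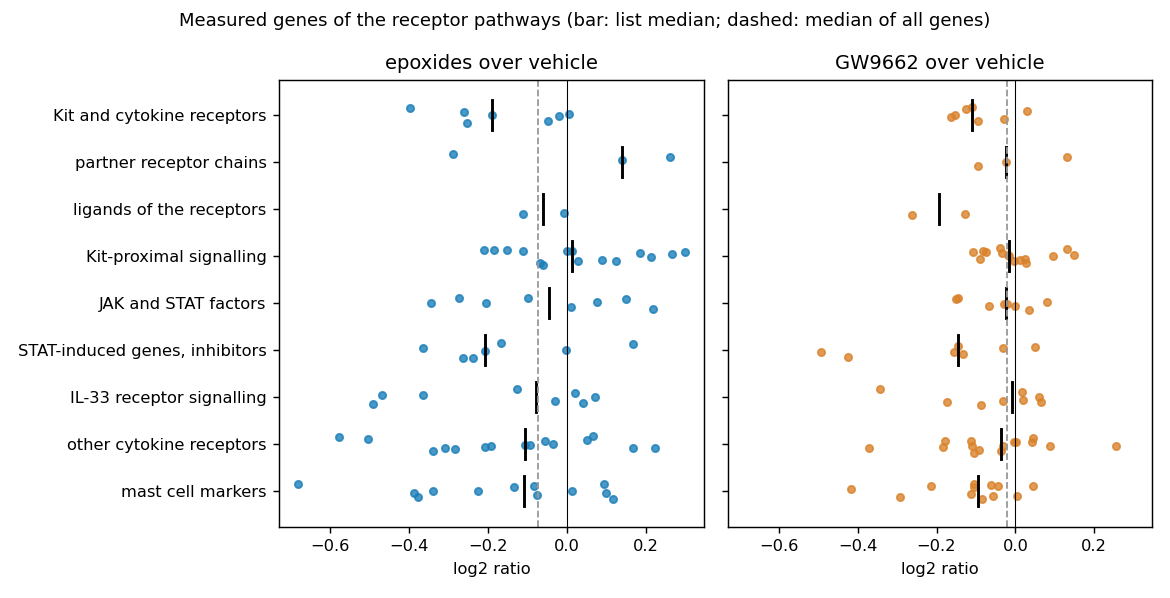
Log2 ratios of measured genes in the receptor list and 8 related lists, for epoxides over vehicle (left) and GW9662 over vehicle (right). Each point is a gene, black bars are list medians and the dashed line is the median of all measured genes (-0.073 and -0.022), and no point reaches a ratio of 1 or -1.

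The labelled cell type was checked on its markers. Of 13 mast cell markers 12 were above background on every array, Tpsab1 being the exception, with medians of -0.109 and -0.094 against vehicle and Cpa3, a mast cell carboxypeptidase, at -0.68 and -0.42. Their summed level, in multiples of the 75th percentile, was 607 with vehicle, 461 on the epoxide-labelled array and 537 on the GW9662-labelled array. This sum is weighted towards bright markers, and Cpa3 was the brightest on every array, at 7.61, 6.93 and 7.19. Not all markers fell: 8 of the 12 read lower than with vehicle and 4 higher on the epoxide-labelled array. On the GW9662-labelled array 10 read lower and 2 higher. Of 5 fibroblast markers none was above background, and of 5 eosinophil markers only Il5ra was, while Epx and Prg2 were not. Macrophage and dendritic cell markers summed to between 1.84 and 1.86, with 6 or 7 of 9 above background. Neutrophil markers summed to 50.5, 35.6 and 44.9, with 4 or 5 of 7 above background. The neutrophil sum is mostly Csf3r, the receptor gene given above, at 5.60, 5.10 and 5.42. The median levels of that list were -4.34, -4.73 and -3.10, and Ltf and Ngp were above background on no array. The middle gene changed on the GW9662-labelled array, where Mpo moved up the list. Mpo, in array row 279 of the central band, read -5.48, -5.42 and -2.43 and was not well above background with vehicle. Of the 4 neutrophil markers measured against vehicle, 3 were negative for GW9662 over vehicle and all 4 for epoxides over vehicle. The 3 basophil markers were above background and summed to between 12.7 and 12.9. Of 7 T and B cell markers 2 or 3 were above background, of which Cd3e had ratios of -1.09 and -0.30, and of 7 erythroid and megakaryocyte markers 4 were. In bulk RNA, fewer cells of a type and less RNA per cell cannot be told apart, and the part of these markers in the receptor ratios was not tested.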

How the data were processed

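Total RNA (200 ng per labelling, per the labels) was labelled with Cy3 and read on 3 one-colour arrays of 1 design. Per the file headers, the processed signal is a background-subtracted, detrended intensity, not scaled between arrays, made with Agilent Feature Extraction 11.5.1.1. The authors' deposited value table holds a linear ratio of that signal to the 75th percentile of each array (quotients constant within 0.001). Under its own labels, which exchange the treated arrays as named here, its column medians were 0.0524 for vehicle, 0.0500 for epoxides and 0.0413 for GW9662.

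Here log2 signals were scaled by the 75th percentile over the 43020 non-control spots of each array. Spots marked as outliers (221 to 251 per array) were dropped and copies of a probe averaged. No receptor spot was an outlier or saturated. Probes were named through the RefSeq table (28330 of 39429 matched) or else by the file. Between 52.3% and 54.6% of spots were well above background. A gene was read by its probe of highest mean level. Members, lists (15 beside the receptors) and rules were chosen with earlier results of these data known. Named from each list, cell type markers aside, were the up to 3 measured genes farthest from vehicle, and, like Csf2rb, the 5 nearest genes. Of the marker genes found by that rule, only Cpa3, Cd3e, Il5ra and Csf3r were given. Kitl, Mpo and genes not above background were named after their values were seen. Alternatives, planned with those results known, were normexp (offset 50, limma 3.58.1, R 4.3.3), quantile, cyclic loess, scaling on detected probes, the value table, outliers kept, mean of probes, no dim filter, 1.5-fold calls, without the central band, a quadratic GC and signal trend removed, and both. Scaling, averaging of copies, gene reading and trend removal were tested on simulated data (Python 3.11.15). Those data had noise of the same size on every spot, in the central band too. The other alternatives were not tested that way.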

Additional observations from a re-analysis of the deposited data

How the results depend on the processing

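Every alternative left 0 receptor genes at 2-fold in each of the 3 comparisons, and none at 1.5-fold. A value is said to have moved when it shifted by at least the technical SD of a ratio. The receptor median for epoxides over vehicle (-0.19) was 0.034 with quantile normalization, -0.044 with cyclic loess, -0.013 with the GC and signal trend removed and -0.068 with that and without the central band of rows, where 4 genes were left. For GW9662 over vehicle (-0.11) it was -0.013 with the trend removed and -0.0036 with the trend removed and without the band. For epoxides over GW9662 (-0.090) it was 0.052 with quantile normalization, 0.033 with cyclic loess, 0.054 with the trend removed and 0.0895 in the authors' value table, whose treated columns are exchanged. The other medians moved less. Of the ratios of single genes, 151 stayed within the technical SD and 73 moved. Csf2rb and Il4ra were negative for epoxides over vehicle under each alternative that could read them. The cause of these shifts was not tested. Dim signal limits Il9r and most ligands. No paired analysis was possible because each group has 1 array.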

Other observations

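Kitl, the gene of stem cell factor, the ligand of Kit, was read by 1 probe in array row 366. It was not well above background with vehicle (-5.48), and read -2.05 on the epoxide-labelled array and -4.73 on the GW9662-labelled array. The level on the epoxide-labelled array was 6.93-fold above the lowest level called well above background with vehicle (-4.84). This is not a least fold over vehicle, since a spot not well above background can read higher than -4.84. The brighter Il9r probe did so with vehicle, at -4.67. Kitl was measured only for epoxides over GW9662, with a log2 ratio of 2.68, which is a call. In that comparison 1.17% of all measured genes were called, and 0.268% without the central band, where the Kitl spot lies. The SD of the pixels of this spot was 22.6% of their mean with vehicle, 19.6% on the epoxide-labelled array and 15% on the GW9662-labelled array. The row lies in that band, where copies of a probe disagree more often than elsewhere, there is no second Kitl probe, and the part of location was not tested.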
